A study of Homo sapiens with 4 samples.

Results

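The inflammasome genes AIM2, NLRP1, NLRP2, NLRP3, NLRP7, NLRP11, CARD8, PYCARD, CASP1 and IL18 were followed in 2 human mantle cell lymphoma cell lines, REC-1 and Z138. These 10 genes, of 18239 measured, were chosen by symbol, with their differences between lines and with CC-292 already known, so their values are a description and carry no test. All 36 probe sets annotated to them were taken, and 2 that also carried another gene symbol were left out, which left 34. Mantle cell lymphoma is a B-cell malignancy driven by cyclin D1, and CC-292 is an inhibitor of Bruton tyrosine kinase (BTK), a kinase of the B-cell receptor. The 4 groups, REC-1 and Z138 each without and with CC-292, hold 1 array apiece, so there are no replicates. Per the labels, cells in exponential growth were exposed for 48 h. The dose is 1 uM in the protocol but 1 mM in the titles of both treated arrays, and no time stands in the Z138 control's title. The labels name no vehicle for the controls. Each line is an established culture and so a single tumour's cells.

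An inflammasome is a cytosolic complex in which a sensor protein, after it has met a danger signal, recruits the adaptor ASC, encoded by PYCARD, and through it the protease caspase-1. Caspase-1 matures the cytokines interleukin-1 beta and interleukin-18 and cuts gasdermin D, whose fragment opens pores in the membrane and kills the cell. The sensors are best known from monocytes and macrophages, and AIM2 is also expressed in memory B cells. Because whole cultures were measured, fewer expressing cells and less RNA per cell cannot be told apart.

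Values are the deposited log2 signals, and a difference of 1 stands for 2-fold. A probe set counted as above background on an array when it exceeded the 95th percentile of the 23 nonspecific background probe sets, a threshold of 4.35 to 4.48. Where a gene has several probe sets, its value is read from the brightest, by mean over the arrays. Where 1 of the 2 values compared lay below background, the lower one was raised to that threshold and the fold is given as "at least". For a gene with 1 probe set no spread can be given, and over all genes the probe sets of a gene differed by a pooled SD of 0.31 (CC-292 difference in REC-1), 0.25 (in Z138) and 0.48 (between control arrays). These SDs hold no error between cultures, which 1 array per group leaves unknown.

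The cells carried the B-cell and lymphoma markers on all 4 arrays. Of 8 measured markers 7 were above background, among them CCND1 at 11.83 to 11.95, while CD5 was below it. None of 9 measured myeloid markers, among them CD14, LYZ and CSF1R, was above background on any array, and their summed signal was 6.51 to 6.68. Of 8 markers of T and NK cells 2 to 3 were above background, with a summed signal of 7.18 to 7.48, and of 2 erythroid markers HBB was. The array medians of 4.63 to 4.64 were nearly equal.

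The first question was which members the lines express. In REC-1, 8 of the 10 members had a probe set above background on both arrays, the exceptions being NLRP3 and IL18. In the Z138 control only PYCARD, CASP1, NLRP1 and CARD8 did, and on the Z138 CC-292 array NLRP2, NLRP7 and NLRP11 joined them just above the threshold. Over all genes, 56.3% were above background on the REC-1 control, 55.7% on the REC-1 CC-292, 56.2% on the Z138 control and 57.1% on the Z138 CC-292 array. Of the 34 probe sets 15 were above background on all 4 arrays and 6 on none.

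**Figure D1:**
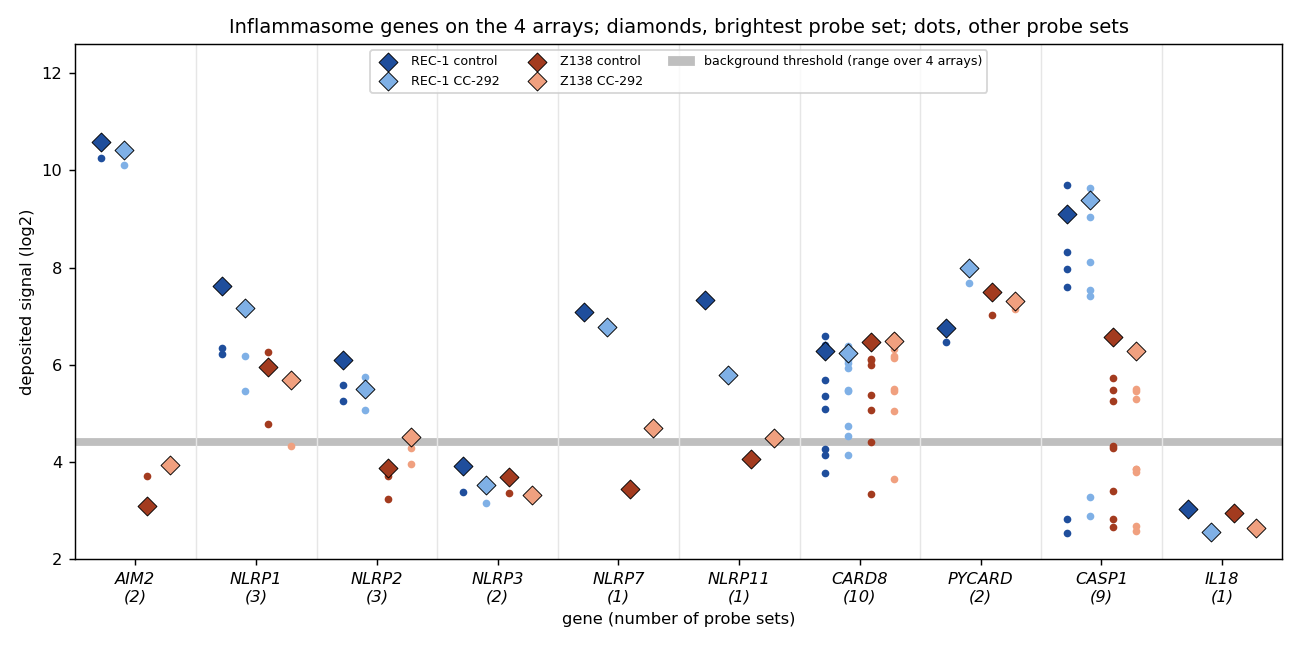
Deposited log2 signal (vertical axis) of every probe set of the 10 genes on the 4 arrays, coloured by array; diamonds mark the brightest probe set, dots the others, and the grey band the background threshold of 4.35 to 4.48. AIM2 stands above 10 in REC-1 and below the band in Z138, and NLRP3 and IL18 lie below the band on all 4 arrays.

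AIM2, the sensor of double-stranded DNA in the cytosol, differed most between lines of all the members. Its brightest probe set read 10.59 on the REC-1 control and 10.43 on the REC-1 CC-292 array, against 3.10 and 3.93 on the Z138 control and CC-292 arrays. Its second probe set read 10.25 and 10.10 in REC-1 and 3.71 and 3.94 in Z138. Both were thus bright in REC-1 and below background in Z138, with no overlap between lines. REC-1 was at least 71.6-fold higher than Z138 on the control arrays and at least 67.5-fold higher on the CC-292 arrays. The second probe set gave at least 56.4-fold and 53.9-fold. With CC-292, AIM2 differed by -0.16 in REC-1 (SD 0.01 over 2 probe sets), rank 6192 by size among 10823 genes. Its difference of 0.83 in Z138 lay wholly below background, and no fold is given.

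The genes nearest to AIM2 in their profile over the 4 arrays, by Euclidean distance after centring, were BBOX1 (0.40), FCRL3 (0.46) and CD300A (0.58). On the brightest probe set all 3 were also bright in REC-1 and below background in Z138, with control differences of at least 5.94, 6.62 and 6.05. With 4 arrays this likeness rests almost wholly on the step between lines. Another FCRL3 probe set read 4.45 on the Z138 CC-292 array, just above background, and its control difference was at least 3.955.

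AIM2 belongs to the PYHIN gene family, and PYHIN1 and IFI16 are among its 3 nearest protein-coding neighbours on 1 side in the RefSeq gene table (GRCh38.p14). On its brightest probe set PYHIN1 read 8.46 and 8.38 in REC-1 and 4.11 and 4.29 in Z138, at least 16.3-fold higher on the REC-1 control. As measured, its 3 probe sets differed between controls by 2.46 to 4.35 (mean 3.41, SD 0.94). IFI16, a nuclear DNA sensor, was above background on all 4 arrays and 1.70 higher on the REC-1 control (mean 1.55, SD 0.17 over 3 probe sets). On the other side CADM3 and FCER1A were below background on both control arrays, and ACKR1 was above it only in Z138, at 4.63 and 4.87. MNDA, the remaining PYHIN member on the array, was below background everywhere.

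The NLRP sensors that were measured in REC-1 also stood lower in Z138. NLRP1, which carries its own caspase-recruiting CARD domain, read 7.61 on the REC-1 control, 7.18 with CC-292 in that line, and 5.95 and 5.69 in Z138. The difference between controls was 1.66 (3.16-fold) on this probe set, 1.44 on the second and 0.10 on the third, so the third probe set hardly separated the lines. All 3 NLRP1 probe sets were lower with CC-292 in both lines, by a mean of -0.46 in REC-1 (SD 0.30) and -0.41 in Z138 (SD 0.13). On the second probe set the Z138 CC-292 value of 4.32 was below background.

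NLRP2 and NLRP7 are sensors whose best known roles lie in the oocyte and early embryo, and they are direct neighbours on chromosome 19. NLRP7, with 1 probe set, read 7.09 on the REC-1 control, 6.79 on the REC-1 CC-292, 3.44 on the Z138 control and 4.70 on the Z138 CC-292 array. REC-1 was at least 6.34-fold higher on the control arrays and 4.25-fold higher on the CC-292 arrays. NLRP2 read 6.11, 5.51, 3.89 and 4.51 on the same arrays, at least 3.20-fold higher in REC-1 on the controls. All 3 NLRP2 probe sets were below background on the Z138 control and above it in REC-1, which leaves differences of at least 1.68, 1.15 and 0.82. Of the genes around them GP6 and FCAR were below background on both control arrays, while NCR1 was above it only on the Z138 control, at 5.04.

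NLRP11, an NLR gene with 1 probe set, was the member that differed most with CC-292 in REC-1. It read 7.34 on the REC-1 control and 5.79 on the CC-292 array, against 4.05 and 4.50 in Z138. The REC-1 control was the highest of the 4 arrays and the treated REC-1 array came next, while the Z138 control was below background and the treated Z138 array just above it. NLRP11 was at least 7.52-fold higher in the REC-1 control than in the Z138 control. Its chromosomal neighbours NLRP4, NLRP8, NLRP9 and NLRP13 were below background on the control arrays of both lines.

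NLRP3, the sensor of potassium loss and membrane damage that is best studied in macrophages, stayed below background on all 4 arrays with both probe sets (3.15 to 3.92). IL18, the cytokine that caspase-1 matures, read 2.56 to 3.04 on its 1 probe set and was also below background throughout. No fold is given for either.

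The adaptor and the protease behaved differently from each other. PYCARD, unlike CASP1, was lower on the REC-1 control than on the Z138 control. Its brightest probe set read 6.77 on the REC-1 control, 7.99 on the REC-1 CC-292, 7.50 on the Z138 control and 7.32 on the Z138 CC-292 array. The second read 6.47, 7.69, 7.03 and 7.15. The REC-1 control was thus the lowest array and the REC-1 CC-292 array the highest on both. Between controls PYCARD differed by -0.73 (1.66-fold lower in REC-1, SD 0.12 over 2 probe sets), and between the CC-292 arrays it was 0.67 higher (SD 0.09).

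CASP1, which encodes caspase-1, was higher in REC-1 on all 7 of its 9 probe sets that were above background on any array. On the Z138 control 3 of the 7 were below background. With those raised to the threshold, the differences between controls ran from 2.52 to 4.21, with a median of 3.53. The brightest probe set read 9.10 and 9.39 in REC-1 and 6.58 and 6.28 in Z138, a difference of 2.52 (5.74-fold) that was the smallest of the 7. It is 1 of 3 whose identifier ends in x_at, the array's mark for probes that may match other transcripts. These 3 differed by a median of 3.39, and the other 4, of which 3 are bounds, by at least 3.71. The remaining 2 probe sets were below background on all 4 arrays.

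CASP1 lies on chromosome 11 beside other caspase and CARD genes. CARD16, a CARD-only inhibitor next to it, was at least 8.90-fold higher in REC-1 on its brightest probe set. Its other probe set was 1.17 higher as measured. CASP4, which senses bacterial lipopolysaccharide, was 2.05 higher, with the same direction on 6 of 6 probe sets. CASP5 and CARD18 were below background in both controls. Other genes beyond them were also higher in REC-1. From CASP4 to PTS, a stretch that also holds IL18, 53 genes were measured and 31 reached the brightness minimum. Of these 31, 30 were higher on the REC-1 control, with a median of 1.37 against 0.02 over all genes. In the rest of chromosome 11 the median of the 601 genes that reached the minimum was 0.27. This stretch was chosen after its values were seen, and its part in the CASP1 difference was not tested.

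CARD8, a sensor related to NLRP1 by its CARD-bearing end, differed little between lines. Its brightest probe set read 6.28, 6.25, 6.47 and 6.48 on the REC-1 control, REC-1 CC-292, Z138 control and Z138 CC-292 arrays. The difference between controls was -0.19 on this probe set, and 9 probe sets above background ranged from -1.07 to 0.48 (mean -0.27, SD 0.52). With 7 below 0 and 2 above, they did not share a direction.

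Between the control arrays, 6 of the 10 members were at least 2-fold higher in REC-1, namely AIM2, CASP1, NLRP1, NLRP2, NLRP7 and NLRP11, and none was 2-fold lower. Of 10823 genes that reached the brightness minimum (the median of all values, 4.63), 11.9% were at least 2-fold higher and 12.4% lower. The same comparison was known when the members were chosen, and AIM2, NLRP2 and NLRP11 reached the minimum in REC-1 only, so nothing is read from the count. Of all genes measured, 59.3% reached the minimum, and 8 of the 10 members did. On the CC-292 arrays 5 members were at least 2-fold higher (12.0% of genes) and none lower (13.3%), with NLRP2 just short of 2-fold. Values were also raised to the highest of the 23 background probe sets on their array in place of the 95th percentile. AIM2 and CASP1 were then the only members still at least 2-fold higher on the control arrays. The highest background probe set read 6.43 to 7.09 over the 4 arrays and the second highest 4.37 to 4.49. No share of all genes is given at that setting. Of 6 members with several probe sets above background, 5 had the same sign on all of them between controls, against 67.8% of genes, the exception being CARD8.

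**Figure D2:**
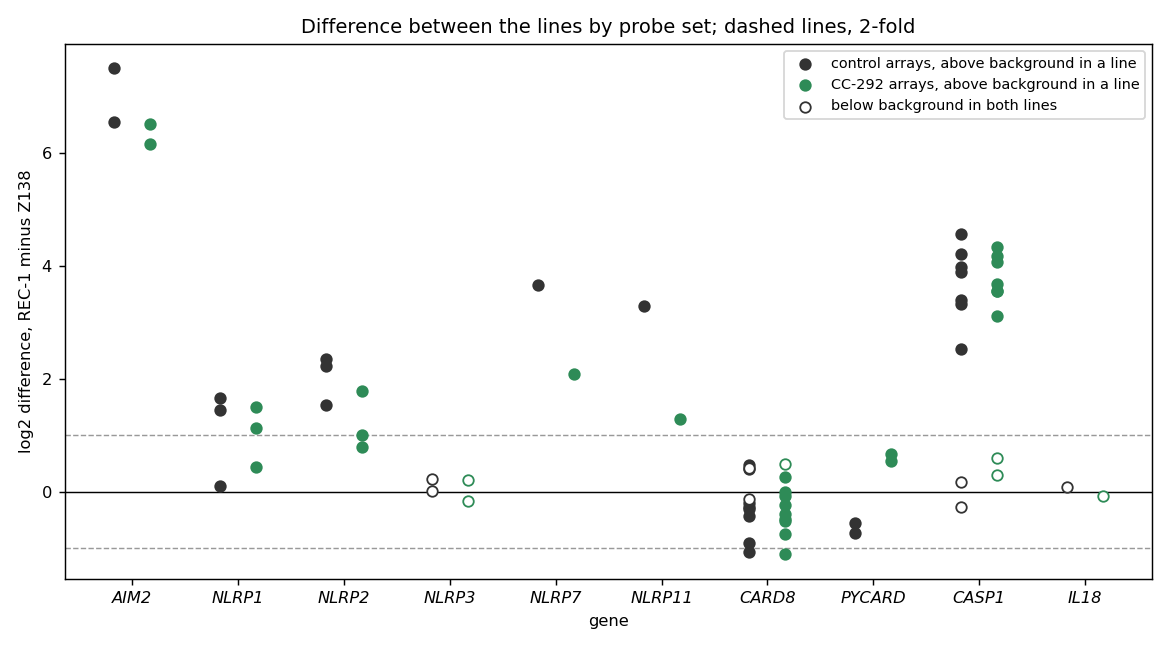
Log2 difference REC-1 minus Z138 as measured (vertical axis) of each probe set, black for the control arrays and green for the CC-292 arrays; open circles were below background in both lines, and dashed lines mark 2-fold. AIM2 and the 7 measurable CASP1 probe sets lie above 2, the CARD8 probe sets lie on both sides of 0, and PYCARD lies below 0 on the control arrays and above 0 on the CC-292 arrays.

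The next comparison asked what differed with CC-292 in REC-1, the line that expressed more of these genes. PYCARD was 2.34-fold higher, by 1.23 on 1 probe set and 1.22 on the other (SD 0.01), and ranked 35th from the highest. NLRP11 was 2.93-fold lower, at -1.55, and ranked 6th from the lowest of 10823 genes. Of all these genes 0.841% were at least 2-fold higher and 0.758% lower. Both genes were above the 95th percentile of background on both REC-1 arrays. The PYCARD control value and the NLRP11 CC-292 value lay below the highest background probe set of their array. Raised to it the differences were 0.90 and -0.74, so neither reached 2-fold. The second highest background probe set read only 4.49 on the REC-1 control and 4.47 on the REC-1 CC-292 array.

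The other members differed by less than 2-fold in REC-1. NLRP2 was at -0.60 on its brightest probe set, -0.51 on the second and 0.51 on the third, an x_at probe set, so its probe sets disagreed. NLRP1 was at -0.44 and NLRP7 at -0.31. CASP1 was at 0.30 on its brightest probe set, but 5 of its 7 measurable probe sets were below 0 and their mean was -0.06 (SD 0.26). CARD8 had 4 of 9 above 0 and 5 below, between -0.31 and 0.68. Probe sets of all members shared a sign in 3 of 6 genes (AIM2, PYCARD and NLRP1), against 41.0% of genes.

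In Z138 no member differed 2-fold with CC-292 where both arrays were above background. NLRP7 was measured 1.26 higher, but its control value lay below background, which leaves at least 1.20-fold. Over all genes 0.213% were at least 2-fold higher and 0.351% lower, and 0.0462% were higher once values below background were raised to it. At 1.5-fold AIM2, NLRP2 and NLRP7 were higher as measured and no member lower, against 2.18% and 2.52% of genes. NLRP2 (0.62) and NLRP11 (0.45) were likewise higher from a control below background, to values of 4.51 and 4.50 that barely passed it. They were at least 1.06-fold and 1.05-fold higher. PYCARD differed by -0.18 on 1 probe set and 0.11 on the other, CASP1 by -0.29, and CARD8 by 0.01 with 8 of 9 probe sets above 0 (mean 0.20, SD 0.26). AIM2, NLRP1 and NLRP2 had the same sign on all probe sets that were above background on any array, 3 of 6 genes against 38.9% of genes. In Z138 itself both AIM2 probe sets and 2 of the 3 for NLRP2 were below background on both arrays.

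**Figure D3:**
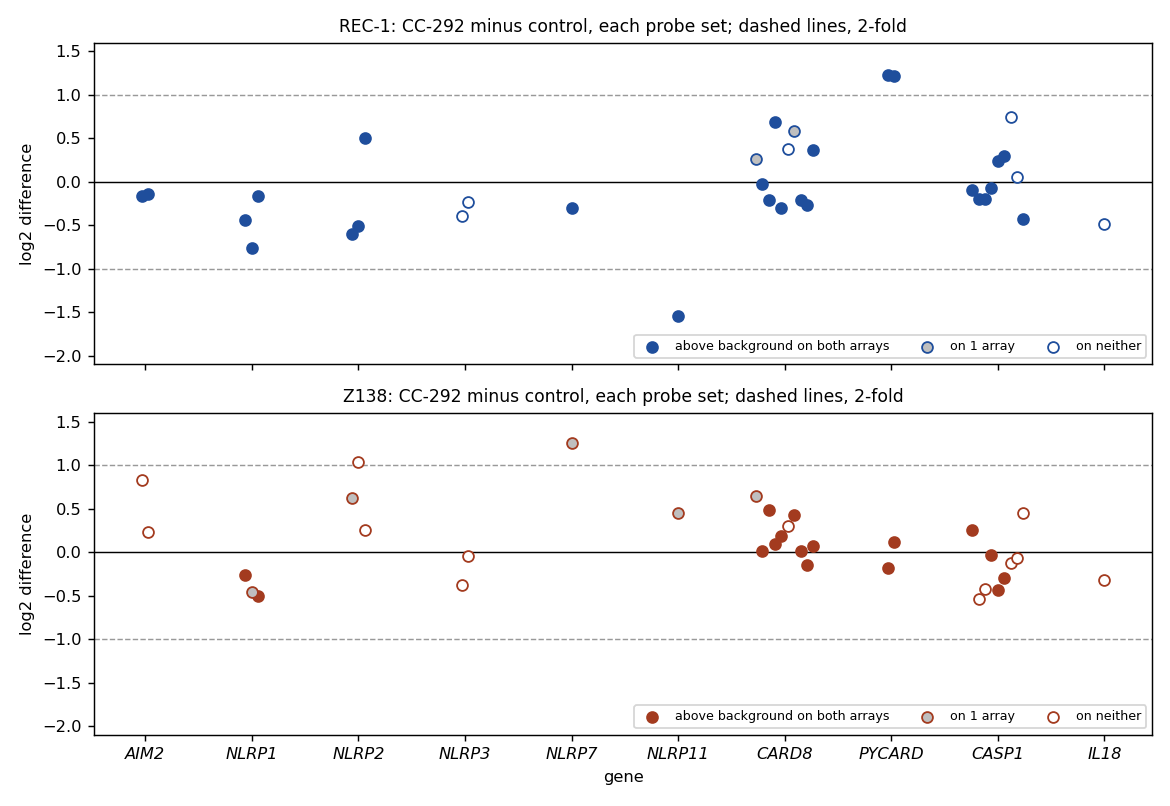
Log2 difference CC-292 minus control (vertical axis) of each probe set in REC-1 (top) and Z138 (bottom); filled circles were above background on both arrays of that line, grey on 1 and open on neither, and dashed lines mark 2-fold. Both PYCARD probe sets lie near 1.2 and NLRP11 at -1.55 in REC-1, and the highest point in Z138, NLRP7, is grey.

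Set side by side, the CC-292 difference of PYCARD was 1.40 larger in REC-1 than in Z138 (mean 1.25, SD 0.21 over 2 probe sets), where 2.07% of genes were at least 1 above. The same quantity was -2.00 for NLRP11, -1.57 for NLRP7 and -1.22 for NLRP2, where 2.04% of genes were at least 1 below. For NLRP2 the 3 probe sets disagreed (mean -0.84, SD 0.96). With values below background raised to the threshold only PYCARD and NLRP11 kept a difference of at least 1, against 1.22% of genes above and 0.887% below. These differences between lines were not tested.

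By the same measure of distance, the genes nearest to NLRP11 over the 4 arrays were UST (0.41), RNF157 (0.46) and CLCN4 (0.54). These genes, and those nearest to NLRP7, were picked by likeness on the same values. Nothing is therefore read from a like difference on the brightest probe set. The REC-1 differences of UST, RNF157 and CLCN4 were -1.35, -1.21 and -0.86 on the brightest probe set. On a second they were smaller, at -0.53, -0.62 and -0.37. A further CLCN4 probe set was higher with CC-292, by at least 0.12, so the CLCN4 probe sets disagreed. Nearest to NLRP7 were CTSH (0.30), AKAP12 (0.43) and DEGS2 (0.49), of which AKAP12 and DEGS2 were below background on both Z138 arrays. CTSH, with a Z138 difference of 0.96, encodes the lysosomal protease cathepsin H. Its brightest probe set was above background on all 4 arrays, from 4.72 on the Z138 control to 7.96 on the REC-1 control. The other CTSH probe set was below background on all 4, at 2.95 to 3.56.

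RefSeq promoter windows (GRCh38.p14) were matched for 7 of the 10 members and are printed for 4 of them. AIM2, NLRP7 and NLRP11 differed most between the control arrays on their brightest probe set. PYCARD had the largest difference above 0 with CC-292 in REC-1. The printed windows show the 250 bases before the start site, 5′ to 3′ on the gene's strand, with matches to 4 motifs in capitals. The motifs, searched on both strands, were NF-kB (GGG and CC with any 5 bases between), the interferon-stimulated response element (GAAA and GAAA with any 2 bases between), STAT (TTC and GAA with any 3 between) and the ETS core (GAGGAA). The windows are AIM2 at chr1:159076767-159077016, PYCARD at chr16:31202761-31203010, NLRP7 at chr19:54947531-54947780 and the upstream NLRP11 start at chr19:55836576-55836825, all on the minus strand.
AIM2: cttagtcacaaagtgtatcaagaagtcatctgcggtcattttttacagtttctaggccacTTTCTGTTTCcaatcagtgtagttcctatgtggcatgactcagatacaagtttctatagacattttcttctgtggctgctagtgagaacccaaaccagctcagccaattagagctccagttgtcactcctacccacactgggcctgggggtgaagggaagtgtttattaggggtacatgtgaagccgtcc
PYCARD: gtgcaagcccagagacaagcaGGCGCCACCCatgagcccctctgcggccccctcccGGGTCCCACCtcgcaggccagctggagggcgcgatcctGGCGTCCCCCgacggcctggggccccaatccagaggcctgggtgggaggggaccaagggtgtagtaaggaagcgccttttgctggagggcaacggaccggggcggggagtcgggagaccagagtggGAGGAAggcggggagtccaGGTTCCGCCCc
NLRP7: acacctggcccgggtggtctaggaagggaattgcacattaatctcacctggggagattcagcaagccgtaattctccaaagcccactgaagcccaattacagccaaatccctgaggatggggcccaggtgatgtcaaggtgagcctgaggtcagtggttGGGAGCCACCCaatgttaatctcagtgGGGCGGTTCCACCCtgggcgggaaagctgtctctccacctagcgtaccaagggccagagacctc
NLRP11: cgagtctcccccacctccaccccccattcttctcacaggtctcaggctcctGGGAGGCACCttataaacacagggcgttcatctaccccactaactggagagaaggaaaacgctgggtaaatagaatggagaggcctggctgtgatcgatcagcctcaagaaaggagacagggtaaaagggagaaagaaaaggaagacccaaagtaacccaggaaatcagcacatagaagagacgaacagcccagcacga

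The AIM2 window held 1 match, to the interferon-stimulated response element, TTTCTGTTTC at -190 to -181 from the start, a motif found in 3.02% of 35116 promoter windows. CARD8, which differed little between lines, also held it, once, in 2 overlapping windows of its 5. The PYCARD window held 4 NF-kB matches and 1 ETS core. NLRP7 held 4 NF-kB matches in 2 overlapping pairs, and NLRP11 held 1. The NF-kB letters occur in 54.4% of windows and the ETS core in 23.6%, so these matches are common. Guanine and cytosine made up 45.6% of the AIM2 window and 71.2% of that of PYCARD. Of the 7 members with a window, CARD8 alone held the STAT letters (6.57% of windows), in 1 of its 5 windows.

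The other genes of the pathway came from 6 lists of 56 genes, of which 55 were on the array and 27 reached the brightness minimum. Between controls 7 of these 27 were at least 2-fold higher in REC-1 (11.9% of all genes) and 9 lower (12.4%), with a median of 0.23 against 0.02 over all genes. With values below background raised to it, 6 were higher and 9 lower, IL1R2 being lost. With CC-292 in REC-1, 1 was 2-fold higher (0.841% of all genes) and none lower (0.758%; median 0.24 against -0.05), and in Z138 none was in either direction (0.213% and 0.351% of all genes; median -0.10 against 0.01).

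Among 17 other sensor genes, all NLR genes except MEFV, 5 reached the minimum. NLRC3, which dampens T-cell and STING signalling, has 1 probe set, which read 8.13 and 9.07 in REC-1 and was below background in Z138. It was at least 13.0-fold higher on the REC-1 control. Within REC-1 it was 0.94 higher with CC-292. NLRC5, the activator of MHC class I genes, went the other way between controls at -2.23, lower on both probe sets, and was 0.71 higher with CC-292 in REC-1. NAIP, which detects flagellin, was at -1.02 between controls, lower on both probe sets, and the peptidoglycan sensor gene NOD1 was at -0.83. The sensor genes NLRC4, MEFV and NOD2 were below the minimum on all arrays.

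Of the 4 nucleic acid sensing genes that reached the minimum, IFI16 and PYHIN1 were higher in REC-1, as above, and CGAS and STING1, which act together in another DNA-sensing route, were lower. CGAS read 4.33 and 4.57 in REC-1 and 7.43 and 7.30 in Z138, so that it was at least 7.74-fold lower on the REC-1 control. On its second probe set the difference was -2.74 or further below 0. STING1 read 3.92 and 4.01 against 5.51 and 5.45 on its 1 probe set, at least 2.05-fold lower. The line with bright AIM2 was thus the one with low CGAS and STING1, each on 1 array per group.

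Regulators of assembly were divided. P2RX7, the ATP-gated channel that triggers NLRP3, read 3.09 and 3.61 in REC-1 and 6.50 and 5.86 in Z138, at least 4.06-fold lower on the REC-1 control, and all 6 of its probe sets were lower there. SERPINB1, a protease inhibitor of the inflammatory caspases, was at least 3.78-fold lower, on 1 probe set. The chaperone partner gene SUGT1 was at -1.20 on its brightest probe set and -0.32 on the other. SERPINB9, an inhibitor of granzyme B, was 4.60-fold higher in REC-1, though its lowest of 3 probe sets differed by 0.33. DPP8, whose protease restrains NLRP1 and CARD8, differed by -0.97 between controls and by 0.65 with CC-292 in REC-1. NEK7, the NLRP3 partner kinase, was at -0.76 between controls. CASP8, the apical death caspase gene, differed by 0.23.

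Of the pore-forming effectors, GSDMD, the substrate of caspase-1, read 5.75 on the REC-1 control and 6.84 on the CC-292 array, and 5.31 and 5.03 in Z138. This was the 1 list gene at least 2-fold higher with CC-292 in REC-1, at 1.09, but its second probe set was at -0.05 there, so the probe sets disagreed. GSDMB was 0.92 higher with CC-292 in REC-1, on 1 probe set, and -2.16 between controls. GSDME was at least 2.44-fold lower on the REC-1 control, while NINJ1, which ruptures the membrane of dying cells, differed by 0.23, each on 1 probe set. Of the cytokine and receptor list, IL1A, IL1B, IL33 and IL37 were below the minimum on all arrays. IL1R2, a decoy receptor gene, was higher in REC-1 by at least 0.14 on its 1 probe set, and IL1RAP differed by -0.78. IL18BP was at 0.40 on its brightest probe set and -0.99 on the other, so its probe sets disagreed.

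**Figure D4:**
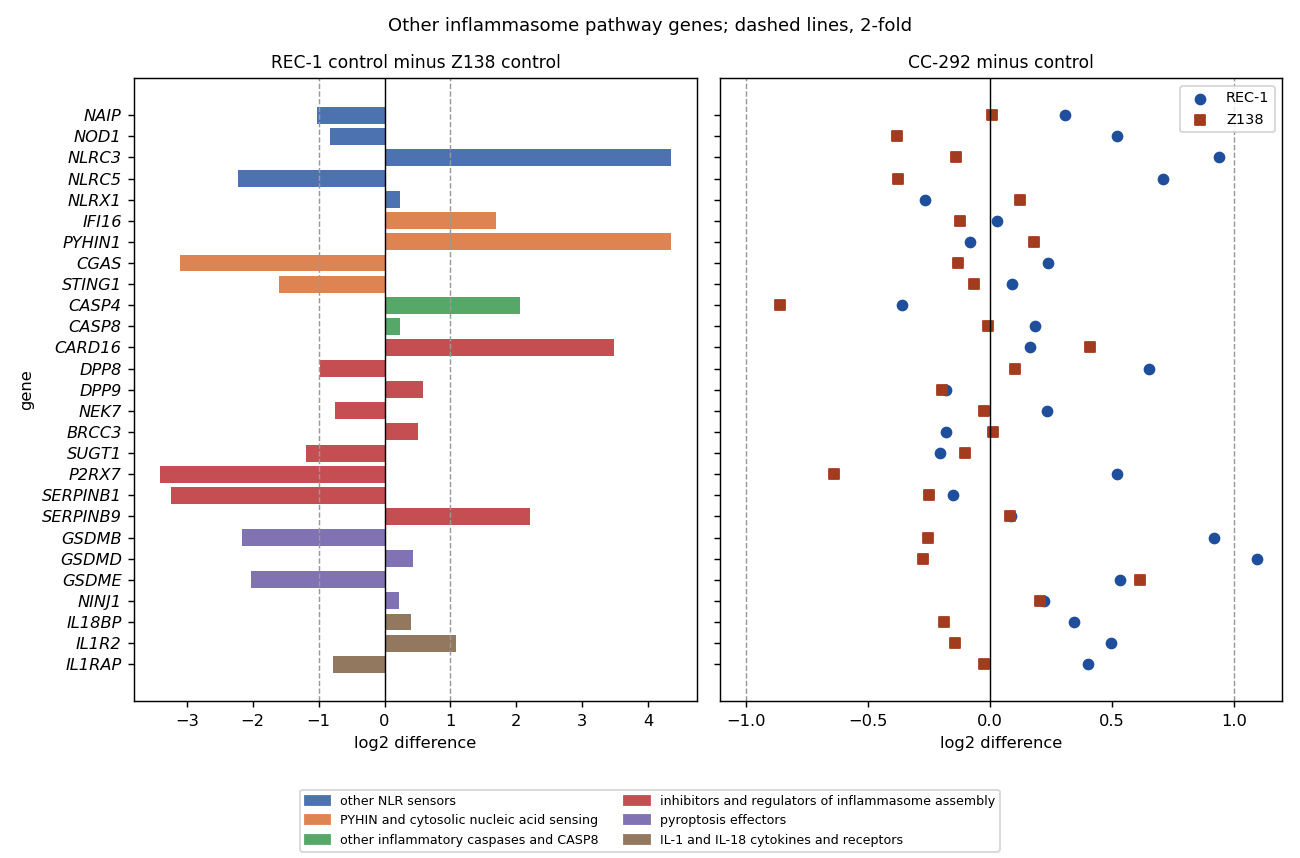
Brightest probe set of the 27 other pathway genes that reached the brightness minimum: bars (left, coloured by list) give REC-1 minus Z138 on the controls, in log2, and points (right) the log2 difference CC-292 minus control in REC-1 (circles) and Z138 (squares), with dashed lines at 2-fold. As measured, NLRC3, PYHIN1 and CARD16 extend furthest to the right and P2RX7, SERPINB1 and CGAS furthest to the left. Each of these bars has a control value below background. With that value raised to the threshold, P2RX7 is at -2.02, SERPINB1 at -1.92 and CGAS at -2.95. GSDMD is the only point past 1 on the right.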

How the data were processed

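The authors deposited 1 log2 signal per probe set for each of 4 arrays. Affymetrix Expression Console 1.1 and RMA are the tools named, per the submitters' processing notes. The log2 scale was inferred from their range, 2.18 to 14.26. No settings or genome build were found in the labels. RMA commonly equalizes distributions, so a shift of most genes one way would not show. Of 49386 probe sets 45259 had 1 gene symbol, 1327 several and 2800 none, and only the first were used. Symbols of 45178 matched RefSeq through Entrez identifiers, and 0 changed. The brightest probe set by mean represented a gene, and 10823 of 18239 genes reached the median of all values. No statistical test of a difference was run. The members and lists were chosen with earlier results of these data known. All members were named. From each list the text takes genes with a 2-fold difference and the 3 brightest. Genes below background or the brightness minimum that are named beside them, and the chromosomal neighbours, were added later. The code that counts folds was checked on simulated arrays with known changes. Alternatives were median centring, quantile normalization and cyclic loess (limma 3.58.1, R 4.3.3), other probe-set choices, brightness minimums, folds and background thresholds. Python 3.11.15, pandas 2.3.3, numpy 2.4.6 and matplotlib 3.10.9 did the rest.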

Additional observations from a re-analysis of the deposited data

Results flagged for a closer look

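AIM2, NLRP7 and NLRP11 were lower with CC-292 in REC-1 and higher in Z138 on every probe set above background on any array. The difference between the lines' differences was not tested. It was -0.99 for AIM2, whose Z138 values were below background on both arrays. It was -1.57 for NLRP7 and -2.00 for NLRP11, whose Z138 control values were below background.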

How the results depend on the processing

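With 1 array per group there is no error between cultures, and leaving out an array ends a comparison. No paired analysis was possible because each group holds 1 array and the labels carry no replicate numbers. Members at least 2-fold different numbered 2 in REC-1, 1 in Z138 and 6 between controls. At a 3-fold threshold they numbered 0 in REC-1 and 0 in Z138, and at 1.5-fold 3 in Z138. With values below background raised to it, chosen after seeing the data, they numbered 0 in Z138, and members whose CC-292 difference was at least 2-fold apart between lines numbered 2 in place of 4. The highest of the 23 background probe sets read 6.43 to 7.09, far above the second highest at 4.37 to 4.49. Against the highest, members above background numbered 5 on both REC-1 arrays, 1 on the Z138 control and 2 on the Z138 CC-292 array. At the 95th percentile they numbered 8, 8, 4 and 7. Raising values to the highest background probe set was chosen after seeing the data. Members at least 2-fold different then numbered 0 in REC-1, 0 in Z138 and 2 between controls, and those apart between lines 1. The cause was not tested beyond what the thresholds themselves set. For the 3-fold threshold and the highest background probe set no share of all genes is given, so nothing is read from those counts. Of 150 single-gene values under the 3 normalizations and 2 other probe-set choices, 143 moved by less than the pooled SD between probe sets, 7 by more, and no 2-fold difference changed sign. All 7 came from the probe-set choices, 3 of 30 values for the mean and 4 of 30 for the median difference. NLRP7, NLRP11 and IL18, with 1 probe set each, could not move under these choices. Among the 7 was CASP1 with CC-292 in REC-1, at -0.07 on the probe set of median difference in place of 0.30.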

Other observations

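The stretch of chromosome 11 from CASP4 to PTS stood higher in REC-1 as a block. Of its 53 measured genes 31 reached the brightness minimum. On the control arrays 23 of these 31 reached a 2-fold difference towards REC-1 (11.9% of all genes) and 1 towards Z138 (12.4%). The quartiles were 1.02 and 1.65, and the stretch was chosen after its values were seen. Near IL18, itself below background, NKAPD1, TIMM8B, SDHD and PTS were higher by 1.37, 1.31, 1.37 and 1.86. Between IL18 and PTS, BCO2 was higher by at least 0.19 and TEX12 was below background on both control arrays. TIMM8B and SDHD encode mitochondrial proteins and PTS an enzyme of tetrahydrobiopterin synthesis, with no part in the inflammasome. In the rest of chromosome 11, 141 of the 601 genes that reached the minimum were at least 2-fold higher on the REC-1 control and 38 lower. There 68.6% were above 0, against 51.1% over all chromosomes. With CC-292 the stretch had medians of -0.02 in REC-1 and 0.07 in Z138.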
